A study of Mus musculus with 18 samples.

Results

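The genes examined were Xrcc1, Lig3, Aptx, Polb, Apex1, Ogg1, Mutyh, Neil1 and Ung, 9 of the 24062 genes counted in intestinal tumours of mice. They were chosen by name as base excision and single-strand break repair genes, and all 9 passed the filter on low counts that left 14271 genes to test. The tumours came from male C57BL/6 mice of a WEHI colony, and every mouse carried ApcMin/+, the Min allele, which truncates the Wnt pathway inhibitor Apc and leads to adenomas throughout the intestine. The Macrod2 genotype was Macrod2-/- in 6 tumours (hom), Macrod2-/+ in 5 tumours of the large intestine (het) and Macrod2+/+ in 6 tumours (wt). A further Macrod2-/+ tumour, het 4, is labelled as small intestine and is given as a value only. The design asks how mRNA levels of tumours depend on the Macrod2 genotype. The titles number the mice of each genotype, so the tumours were taken as separate animals, and p-values measure the spread between these tumours. The labels used here give neither the ages of the mice nor the part of Macrod2 that was deleted, and name no promoter or Cre, so whether the allele acts in all cells is not stated. The RNA was from whole resected tumours, so fewer cells of a type and less RNA per cell cannot be told apart.

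Base excision repair removes small damaged bases. A glycosylase (here Ung, Ogg1, Mutyh or Neil1) cuts the base from the sugar, the endonuclease Apex1 nicks the strand at the empty site, DNA polymerase beta (Polb) fills the gap, and DNA ligase 3 (Lig3), bound to the scaffold protein Xrcc1, seals the nick. Strand breaks are sensed by PARP1, which makes ADP-ribose chains that draw Xrcc1 to the break, and aprataxin (Aptx) clears abortive ligation products from the ends. MACROD2 belongs to the macrodomain family and takes ADP-ribose off modified proteins.

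Libraries held 13529204 counts (wt 4) to 20857918 counts (hom 1), and the ribosomal RNA precursor Rn45s made up 27.0% of wt 3 and at most 0.725% of any other library. Macrod2 averaged 0.158 ± 0.147 CPM (counts relative to library size, scaled by TMM factors) in hom tumours, 2.20 ± 0.727 CPM in het and 3.74 ± 0.580 CPM in wt (SD, n = 6, 5 and 6). The hom libraries held 0 to 8 Macrod2 counts, and the log2 fold change was -4.49 in hom over wt (SE 0.43, edgeR adjusted p = 1.17e-04). All 7 epithelial markers were detected in every tumour, with sums of 10382 to 11930 CPM in hom, 10074 to 12857 CPM in het and 9073 to 14860 CPM in wt. The 5 colonocyte markers differed: over the tumours labelled large intestine the median was 281.5 CPM for Guca2a, 31.2 CPM for Car4, 25.2 CPM for Slc26a3, 0.506 CPM for Aqp8 (at 0 in 2 tumours) and 0.153 CPM for Car1. The 8 markers of small intestine were Gata4, Lct, Apoa1, Apoa4, Fabp1, Fabp6, Alpi and Sis. They summed to 2563 to 17804 CPM in hom, 2079 to 11452 CPM in het and 94.4 CPM (wt 4) to 42937 CPM (wt 2) in wt. Because wt tumours differed so much, results were also computed without wt 1 and wt 2. The mean log2 CPM of these markers, relative to the mean of the large intestinal tumours, was highest in wt 1 (2.66) and wt 2 (2.76). It was lowest in wt 4 (-4.64), which was left out only on its own.

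The genes lie on 8 chromosomes of the mm10 assembly, with Aptx and Mutyh on chromosome 4. Apex1, at chr14:50924968-50927139 on the + strand, is the shortest, and 61.7% of its exon bases (877 bases) are also exon of Pip4p1 on the opposite strand. Lig3, at chr11:82781108-82804274 on the + strand, shares 25.1% of its exon bases with Rffl on the opposite strand. Ogg1, at chr6:113326972-113335068 on the + strand, shares 10.6% with Camk1, and Polb, at chr8:22628126-22653435 on the - strand, shares 1.14% with Gm26909. Whether reads were counted by strand is not given in the sources used here. Counts of these 4 genes may therefore include reads of the partner, in a number that was not measured. In GENCODE vM21 the other genes share no exon bases with another gene: Xrcc1 at chr7:24546289-24573440 (+), Aptx at chr4:40682382-40703194 (-), Mutyh at chr4:116807723-116819440 (+), Neil1 at chr9:57142800-57148305 (-) and Ung at chr5:114130386-114139323 (+).

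The start regions of 4 of these genes are shown because their transcripts span the range of behaviour described below: Ung followed the replication genes most closely, Lig3 varied least within genotypes, Apex1 had the highest level per length, and Aptx ran against the others. RefSeq start regions of 300 bases on GRCm38.p6 were matched to 8 of the 9 genes, all but Polb. Each is written 5′ to 3′ on the gene's strand, and capitals mark matches on either strand to an E-box, a GC box, a CCAAT box or an NRF1 core. The E-box searched for, the sequence read by basic helix-loop-helix factors, was CACGTG. The GC box, the sequence that Sp1 and related zinc finger proteins recognise, was searched for as GGGCGG. For the NRF1 core, named after nuclear respiratory factor, the letters were CATGCGC. The windows are chr5:114130185-114130484 for Ung, chr14:50924699-50924998 for Apex1, chr11:82780859-82781158 for Lig3 and chr4:40703145-40703444, 1 of 2 start regions, for Aptx.
Ung: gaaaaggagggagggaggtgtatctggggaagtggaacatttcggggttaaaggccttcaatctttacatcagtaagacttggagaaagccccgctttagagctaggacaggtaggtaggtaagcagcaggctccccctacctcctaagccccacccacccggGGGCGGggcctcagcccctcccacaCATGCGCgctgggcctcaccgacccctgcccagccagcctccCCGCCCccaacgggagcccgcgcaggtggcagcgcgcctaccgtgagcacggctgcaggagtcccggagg
Apex1: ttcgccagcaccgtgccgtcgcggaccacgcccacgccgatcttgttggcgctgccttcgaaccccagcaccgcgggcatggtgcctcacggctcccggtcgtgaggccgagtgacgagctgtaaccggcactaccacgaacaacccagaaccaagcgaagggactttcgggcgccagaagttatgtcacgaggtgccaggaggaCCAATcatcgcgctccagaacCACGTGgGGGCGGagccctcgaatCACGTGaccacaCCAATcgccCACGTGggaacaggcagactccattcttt
Lig3: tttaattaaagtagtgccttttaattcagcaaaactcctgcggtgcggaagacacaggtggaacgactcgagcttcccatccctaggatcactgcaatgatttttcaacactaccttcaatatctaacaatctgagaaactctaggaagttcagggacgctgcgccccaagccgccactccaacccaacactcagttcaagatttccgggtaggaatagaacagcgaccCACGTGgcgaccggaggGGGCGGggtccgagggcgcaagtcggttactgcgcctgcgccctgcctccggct
Aptx: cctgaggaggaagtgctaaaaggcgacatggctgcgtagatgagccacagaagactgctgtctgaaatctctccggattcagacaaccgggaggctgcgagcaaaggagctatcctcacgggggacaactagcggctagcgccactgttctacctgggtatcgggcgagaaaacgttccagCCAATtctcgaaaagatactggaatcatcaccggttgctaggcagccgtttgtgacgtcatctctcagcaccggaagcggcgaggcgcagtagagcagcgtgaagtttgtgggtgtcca
Ung held 1 NRF1 core and 2 GC boxes. Apex1 held 3 E-boxes, 1 GC box and 2 CCAAT boxes. Lig3 held 1 E-box and 1 GC box, and the Aptx window shown held 1 CCAAT box. The other Aptx start region, chr4:40702867-40703166, held 2 GC boxes and 0 CCAAT boxes. Of 32851 RefSeq start regions of the same length, 7.15% held the E-box, 35.7% the GC box, 37.4% the CCAAT box and 3.91% the NRF1 core. The E2F motifs TTTCCCGC, TTTCGCGC, TTTGCCGC and TTTGGCGC, searched on both strands, stood in 2.26% of these start regions and in 0 of the windows of the 8 genes. No matches overlapped each other. A match is a string of letters, not a measured binding site.

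Levels were compared between genes by the authors' RPKM, read counts divided by gene length and by library size. The gene lengths are those deposited, and the order of the genes depends on them. Apex1 was the highest, with a mean of 77.3 ± 15.8 RPKM over the 17 tumours of the large intestine (SD), above 91.8% of tested genes. Polb followed with 25.0 ± 5.96 RPKM, then Xrcc1 with 16.5 ± 3.57 RPKM. Lig3 (10.5 ± 1.09 RPKM), Ogg1 (10.1 ± 1.75 RPKM) and Ung (9.13 ± 2.87 RPKM) formed a group in which neighbours did not differ beyond their spread: Lig3 exceeded Ogg1 in 10 of 17 tumours, and Ogg1 exceeded Ung in 12 of 17. Neil1 had 6.82 ± 1.32 RPKM and Aptx 3.22 ± 0.380 RPKM. Mutyh was the lowest at 1.74 ± 0.638 RPKM and rested on 16 to 95 counts per library. In every tumour the endonuclease Apex1 thus had a higher RPKM than any of the 4 glycosylases.

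**Figure D1:**
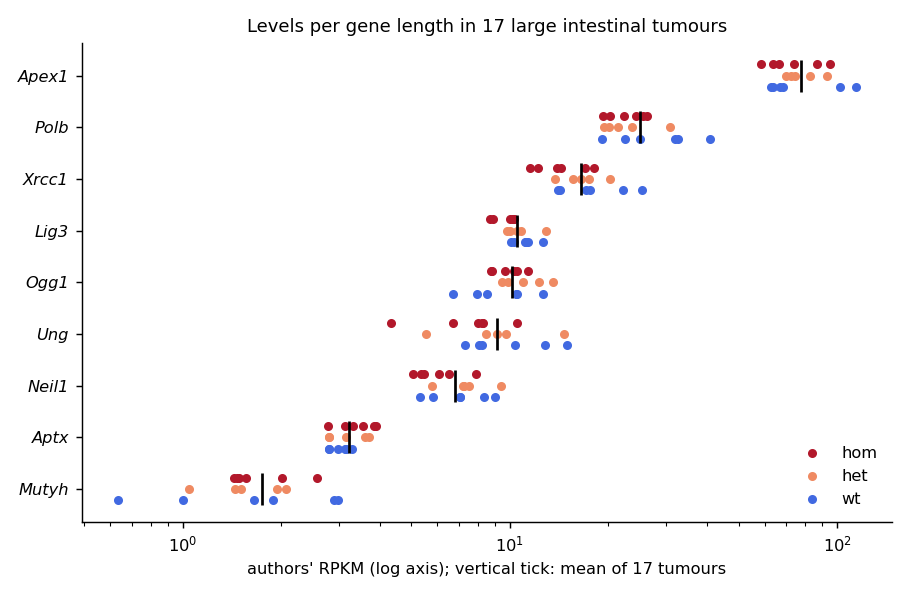
RPKM of the 9 repair genes in 17 large intestinal tumours on a log axis, 1 point per tumour coloured by genotype (hom, het, wt), with a vertical tick at the mean. Apex1 lies highest at a mean of 77.3 RPKM and Mutyh lowest at 1.74 RPKM, and the wt points spread widest for Mutyh.

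The genotype comparisons gave no repair gene past the threshold. Of the 9 genes, 7 had a lower estimate in hom than in wt, beside 54.3% of all genes, and 0 passed an adjusted p of 0.05 (edgeR quasi-likelihood test), beside 0.00701% of all genes, which was Macrod2 alone. DESeq2 and limma-voom also called 0 of the 9. Xrcc1, Lig3 and Polb had an unadjusted p under 0.05, all lower in hom. That is 33.3% of 9 genes, beside 10.6% of all genes that were lower and 5.35% that were higher in hom at that level. The median log2 fold change of the 9 was -0.22, beside -0.03 for all genes. The values of each gene follow by its step in repair, with all ranges of hom and wt overlapping.

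Ung, the glycosylase that removes uracil, had 8.92, 17.1 and 22.1 CPM as lowest, median and highest of hom tumours. It had 11.8, 18.1, 19.0, 20.5 and 30.3 CPM in het 1, 2, 3, 5 and 6, against 15.4, 19.5 and 32.002 CPM in wt. Hom 3 was the lowest of all tumours and wt 4 the highest, and 2 hom tumours lay below every wt tumour. Hom over wt gave a log2 fold change of -0.45 (SE 0.24, 95% interval -0.95 to 0.06, edgeR adjusted p = 0.357). Without wt 4 it was -0.29, and without hom 3 it was -0.32.

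Neil1, which removes oxidised pyrimidines, had 5.79, 6.76 and 9.23 CPM as lowest, median and highest in hom, and 6.83, 8.61, 8.70, 8.49 and 10.9 CPM in the 5 het tumours. In wt the lowest, median and highest were 6.08, 8.28 and 10.7 CPM. Hom 4 stood above the other hom tumours, and the groups overlapped. Its log2 fold change was -0.25 in hom over wt (SE 0.16, edgeR adjusted p = 0.433).

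Ogg1, which removes 8-oxoguanine, had 13.4, 15.3 and 17.6 CPM in hom, against 10.1, 14.7 and 19.9 CPM in wt (lowest, median and highest). The het tumours had 17.1, 19.3, 14.4, 15.4 and 20.7 CPM. Wt 2 was the lowest and het 6 the highest, and the hom values lay wholly inside the wt range. The log2 fold change was 0.04 in hom over wt (95% interval -0.26 to 0.34). Mutyh, which removes adenine paired with 8-oxoguanine, had 2.48, 2.64 and 4.49 CPM in hom, against 1.08, 3.08 and 5.22 CPM in wt. Its interval, -0.78 to 0.57, was the widest of the 9 genes, and its hom values too lay inside the wt range.

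Apex1 had 75.6, 92.4 and 124.7 CPM in hom (lowest, median and highest) and 98.4, 109.8, 93.7, 92.0 and 120.3 CPM in the het tumours, against 80.4, 89.0 and 151.6 CPM in wt. Wt 4 and wt 5 (134.5 CPM) were above all other tumours, while the other 4 wt tumours lay at or below 89.4 CPM. Hom over wt was -0.14 on the log2 scale (SE 0.16, edgeR adjusted p = 0.673).

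Polb had 23.9, 28.6 and 32.4 CPM in hom (lowest, median and highest), against 23.5, 35.1 and 51.1 CPM in wt. In het tumours it had 24.1, 26.7, 24.4, 29.1 and 37.4 CPM. The 3 highest values of all tumours were those of wt 4, wt 5 and wt 6, and wt 1 was the lowest. The log2 fold change was -0.35 in hom over wt (SE 0.16, 95% interval -0.69 to -0.00326, unadjusted p = 0.0481, edgeR adjusted p = 0.312). Without wt 4 its fold change was -0.20 on the log2 scale, with an unadjusted edgeR p of 0.227.

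Xrcc1 had 24.6, 30.2 and 39.1 CPM in hom (lowest, median and highest), against 29.9, 37.6 and 55.7 CPM in wt. The het tumours had 29.9, 34.3, 35.3, 37.9 and 43.1 CPM. Hom 5 and hom 6 were below every wt tumour, and wt 4 and wt 5 were above every hom and het tumour. The log2 fold change was -0.37 in hom over wt (SE 0.15, 95% interval -0.70 to -0.05, unadjusted p = 0.0276, edgeR adjusted p = 0.280). Without wt 4 it was -0.23 and the unadjusted edgeR p was 0.138.

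Lig3, its partner ligase, had 51.0, 60.6 and 61.3 CPM in hom (lowest, median and highest) and 59.2, 61.1, 62.4, 64.8 and 75.9 CPM in het, against 58.7, 67.1 and 75.8 CPM in wt. Hom 2 and hom 3 were the lowest of all, and the other 4 hom tumours fell between 60.5 and 61.3 CPM, inside the wt range. The log2 fold change was -0.22 in hom over wt (SE 0.08, 95% interval -0.40 to -0.04, unadjusted p = 0.0181, edgeR adjusted p = 0.271), the smallest adjusted p of the 9. Without wt 5 it was -0.16, with an unadjusted edgeR p of 0.0917.

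Aptx was the gene whose estimate ran most clearly the other way. It had 15.9, 19.9 and 22.1 CPM in hom (lowest, median and highest), against 16.2, 17.5 and 19.1 CPM in wt, and 4 of 6 hom tumours lay above every wt tumour. The het tumours had 21.5, 21.1, 18.01, 16.2 and 15.96 CPM. Its log2 fold change was 0.14 in hom over wt (SE 0.11, edgeR adjusted p = 0.496).

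**Figure D2:**
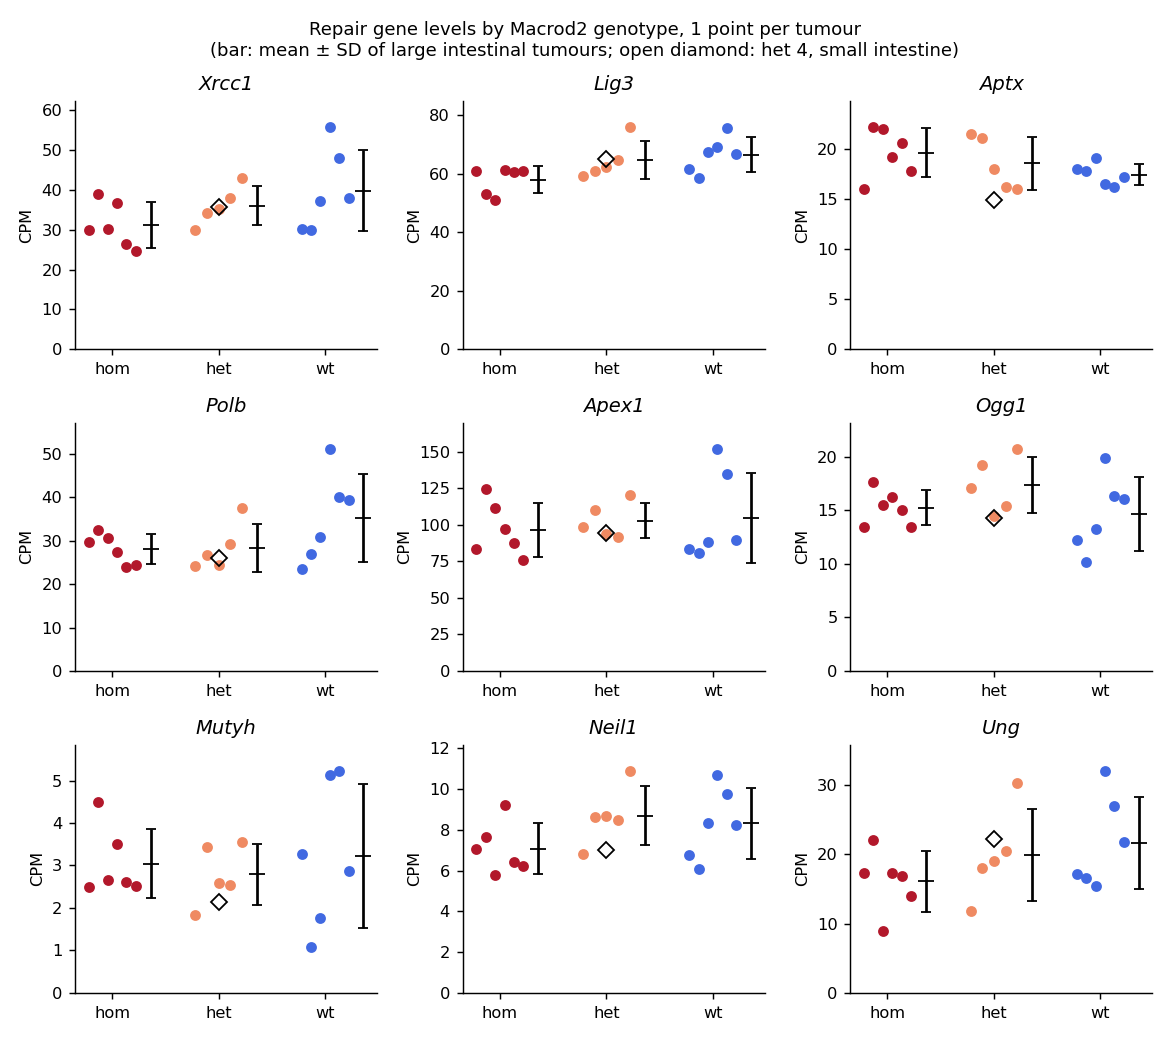
CPM of each repair gene in hom, het and wt tumours, 1 point per tumour, bars showing the mean ± SD of the large intestinal tumours and an open diamond for het 4 of the small intestine. The ranges overlap for every gene, and wt 4 and wt 5 stand high for Xrcc1 and Apex1.

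An unadjusted p under 0.05 was not stable when tumours were left out, for these genes and for all genes. In edgeR 0 of the 9 genes had one without wt 4 (1341 of all genes), without wt 5 (1646), without wt 6 (1809) or in a fit of hom and wt tumours alone (1898). Several fold changes stayed about as large in these fits. Without wt 6 Xrcc1 was at -0.37, with an unadjusted edgeR p of 0.0503, and Lig3 at -0.20, with an unadjusted edgeR p of 0.0518. With wt 1 and wt 2 left out 5 had one, Xrcc1, Lig3, Polb, Neil1 and Ung, with a lowest adjusted p of 0.124. In that fit 3535 of all genes had an unadjusted edgeR p under 0.05, beside 2277 with all 17 tumours. Wt 1 and wt 2 had the lowest means of the 9 genes among wt tumours (-0.55 and -1.06 SDs from each gene's mean). Leaving them out therefore raises the wt level of these genes as a set. For Xrcc1 the unadjusted edgeR p also exceeded 0.05 without hom 1 (log2 fold change -0.34), hom 5 (-0.31) or hom 6 (-0.29), and for Lig3 without hom 2 (-0.18) or wt 3 (-0.18). For Polb it stayed under 0.05 only where wt 1 or wt 2 was the tumour left out. With all 17 tumours kept, Polb had an unadjusted p of 0.0598 in DESeq2 and 0.0628 in limma-voom. In edgeR with DESeq2 size factors it was 0.0616. In these 3 settings the count of 3 genes became 2, Xrcc1 and Lig3. The same 2 remained in edgeR with Rn45s removed (Polb at an unadjusted p of 0.0692), with the tumour number as a block and with het 4 added. With no filter on low counts Xrcc1 alone remained. Ung reached 0.0450 in the edgeR fit without hom 2, where 2909 of all genes had an unadjusted p under 0.05.

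The comparison of het with wt asked whether loss of 1 copy of Macrod2 accompanies a difference. Of the 9 genes, 6 had a lower estimate in het, beside 56.8% of all genes, with a median log2 fold change of -0.07, beside -0.03 for all genes. In edgeR 0 of the 9 passed, beside 0% of all genes, and 0 had an unadjusted p under 0.05, beside 2.85% of all genes, 1.67% lower and 1.18% higher (407 genes, with 498 in DESeq2 and 339 in limma-voom). Polb had the smallest p, with a log2 fold change of -0.34 (95% interval -0.70 to 0.03, edgeR adjusted p = 0.999), and Ogg1 was next at 0.22 (95% interval -0.09 to 0.54). Both moved without wt 4, Polb to -0.18 and Ogg1 to 0.35, with an unadjusted edgeR p of 0.0330 for Ogg1. Polb had an unadjusted edgeR p under 0.05 without wt 1 (-0.43), wt 2 (-0.38) or het 6 (-0.44), and without both wt 1 and wt 2 (-0.50). The count of 0 thus became 1 in each of these 5 fits, through Ogg1 in that without wt 4 and through Polb in the others. Of all genes, 328 had such a p without wt 4, 499 without wt 1 and 346 without wt 2. Without het 6 it was 970 genes, and without both wt 1 and wt 2 it was 1055, beside 407 with all 17 tumours. Het and hom were set against the same wt tumours, so these 2 comparisons are not independent.

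In hom over het, 7 of the 9 genes had a lower estimate, beside 51.8% of all genes, with a median log2 fold change of -0.16, beside -0.01 for all genes. In edgeR 0 passed, beside 0.00701% of all genes (Macrod2 alone), and 0 had an unadjusted p under 0.05, beside 2% of all genes, 1.03% lower and 0.974% higher. The smallest p were those of Lig3 at -0.16 (95% interval -0.34 to 0.03) and Neil1 at -0.30 (95% interval -0.66 to 0.06), each with an edgeR adjusted p of 0.9998. Without hom 4 Neil1 was at -0.39, with an unadjusted edgeR p of 0.0460, so the count of 0 became 1 in that fit. Of all genes, 247 had an unadjusted p under 0.05 there, beside 286 with all 17 tumours. Polb was nearly level, at -0.01 (95% interval -0.37 to 0.35). The tumour het 4 of the small intestine lay outside the range of the other het tumours for 2 genes, Aptx (14.9 CPM) and Ogg1 (14.2 CPM), and below it for both.

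**Figure D3:**
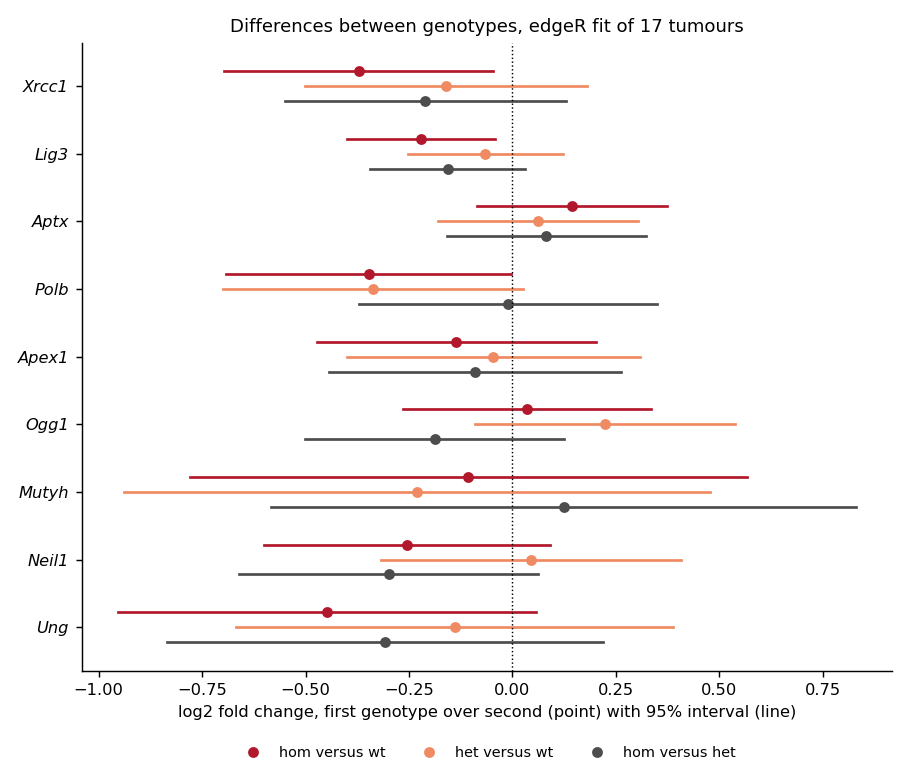
Log2 fold change of each repair gene in hom over wt, het over wt and hom over het (points) with the 95% interval (lines) from the edgeR fit of 17 tumours. For hom over wt the intervals of Xrcc1, Lig3 and Polb lie below 0, and each other interval in the plot spans 0.

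A wider list of 29 base excision and break repair genes, of which 28 were tested, was read in the same fit. Tdg did not pass the filter on low counts. In hom over wt 24 were lower and 4 higher, beside 54.3% of all genes that were lower. The median log2 fold change was -0.30, beside -0.03 for all genes. Of the 28, 7 had an unadjusted p under 0.05, all lower, beside 10.6% of all genes, while 0 passed after adjustment (smallest edgeR adjusted p = 0.258). The 13 genes of gap filling and long-patch repair were all lower in estimate, with a median of -0.31, and 3 of them had an unadjusted p under 0.05. Pold3, a subunit of DNA polymerase delta, averaged 90.8 ± 18.6 CPM in hom and 144.2 ± 41.1 CPM in wt (SD, n = 6 each), a log2 fold change of -0.69. Tdp1, which frees DNA ends from trapped topoisomerase, averaged 14.4 ± 2.40 CPM in hom and 22.1 ± 6.58 CPM in wt (SD, n = 6 each), a log2 fold change of -0.63. Nudt1, which destroys oxidised purine nucleotides before they enter DNA, was at -0.55. The 6 tested glycosylases of the wider list divided into 3 lower and 3 higher, the higher ones led by Smug1 (0.15), a uracil glycosylase, and Neil2 (0.61, at a mean of 0.659 CPM in hom and 0.417 CPM in wt).

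In het over wt 22 of the 28 were lower and 6 higher, beside 56.8% of all genes that were lower. The median was -0.13, beside -0.03 for all genes. Of the 28, 1 had an unadjusted p under 0.05, beside 2.85% of all genes, 1.67% lower. This was Pold3, with a log2 fold change of -0.49 (edgeR adjusted p = 0.999). Pcna, the sliding clamp, was at -0.27 and Hmgb1 at -0.30, the last uncertain because Hmgb1 has processed pseudogenes. Neil2 (0.59) and Smug1 (0.15) were among the higher genes with the smallest p. In hom over het 23 were lower and 5 higher, beside 51.8% of all genes that were lower. The median was -0.13, beside -0.01 for all genes, with 0 at an unadjusted edgeR p under 0.05, beside 2% of all genes. Tdp1 was at -0.44, Nudt1 at -0.34 and Apex2, a second AP endonuclease, at -0.32, while Rfc3 (0.10), a clamp loader subunit, Neil3 (0.07) and Pold4 (0.03) had the smallest p among the higher genes.

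Replication genes also had lower estimates. In hom over wt all 20 genes of an S phase list had lower estimates (median -0.43), as did all 15 of a mitosis list (median -0.45), and 0 of either passed. Mki67 was at -0.50, Mcm2 at -0.45 and Pcna at -0.33. The summed S phase level was 766 to 1439 CPM in hom, 853 to 2047 CPM in het and 1278 to 2166 CPM in wt, and wt 4, wt 5 and het 6 had the 3 highest S phase scores. Over all genes 54.3% had a lower estimate in hom. Fibroblast markers had higher estimates in hom (7 of 7, sums of 302 to 703 CPM in hom and 228 to 448 CPM in wt). So did goblet (5 of 5), macrophage (5 of 5) and endothelial markers (5 of 6). Mast cell markers had lower ones (5 of 5, 45.2 to 226.1 CPM in hom and 37.5 to 7451 CPM in wt, the highest in wt 2), as did 4 of 5 smooth muscle markers. The part of these lists in the differences of the repair genes was not tested.

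Across tumours, whatever the genotype, the repair genes differed in how much they varied. Lig3 had an SD of 0.13 log2 units within genotypes, smaller than in all but 3.97% of tested genes, and its highest tumour exceeded its lowest by 1.49-fold. Aptx was similarly narrow, with an SD of 0.16 and a range of 1.39-fold. Xrcc1, Polb, Apex1, Ogg1 and Neil1 had SDs of 0.25 to 0.30 and ranges of 1.88-fold to 2.27-fold. Ung (SD 0.45, 3.59-fold) and Mutyh (SD 0.58, 4.83-fold) varied most, above the median SD of all tested genes, 0.33. For Mutyh the counts behind each value were few.

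The S phase score of a tumour, the mean log2 CPM of the 20 S phase genes relative to the mean of 17 tumours, was set against each gene. All 18 relations computed with this and a colonocyte score were adjusted together, with 100000 permutations of the tumours. Ung followed the S phase score most closely, with a Pearson r of 0.97 and a Spearman rho of 0.92 (permutation p = 1e-05 for both, the smallest the permutations can give, adjusted p = 0.00018 for both). Its r was 0.95 without hom 3 and wt 4, the 2 tumours farthest from the median score, and 0.96 on values relative to genotype means. Of all tested genes, which include the S phase genes, 99.87% had a lower r than Ung. The share with a lower r was 94.3% for Neil1, 93.7% for Xrcc1, 91.4% for Lig3, 87.2% for Polb, 82.3% for Mutyh, 79.1% for Apex1, 69.6% for Ogg1 and 6.08% for Aptx, so many other genes followed the score as closely as most of these. In human cells the nuclear form of the UNG enzyme is known to act at replication forks.

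Neil1 had an r of 0.81 (rho 0.76, adjusted permutation p = 0.00027 and 0.0023), and Xrcc1 an r of 0.80 (rho 0.78, adjusted permutation p = 0.000864 and 0.0023). Lig3 had an r of 0.75 (rho 0.68, adjusted permutation p = 0.00151 and 0.00781), Polb 0.67 (rho 0.55, 0.00591 and 0.0345) and Mutyh 0.57 (rho 0.60, 0.0217 and 0.022). Without the 2 farthest tumours these r were 0.72 for Neil1, 0.79 for Xrcc1, 0.64 for Lig3, 0.72 for Polb and 0.56 for Mutyh. Apex1 was near the threshold, with an r of 0.51 (rho 0.46, adjusted permutation p = 0.0429 and 0.069). Ogg1 did not pass, at 0.34 (rho 0.39, adjusted permutation p = 0.184 and 0.118). Aptx alone ran the other way, with an r of -0.68 and a rho of -0.57 (adjusted permutation p = 0.00481 and 0.0291), and -0.58 without the same 2 tumours. On values relative to genotype means the relations held for Aptx (-0.62), Neil1 (0.82), Xrcc1 (0.75), Lig3 (0.70), Mutyh (0.65) and Polb (0.62). Apex1 was again near the threshold (0.50, adjusted permutation p = 0.0471), and Ogg1 did not pass (0.47, adjusted permutation p = 0.0594).

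**Figure D4:**
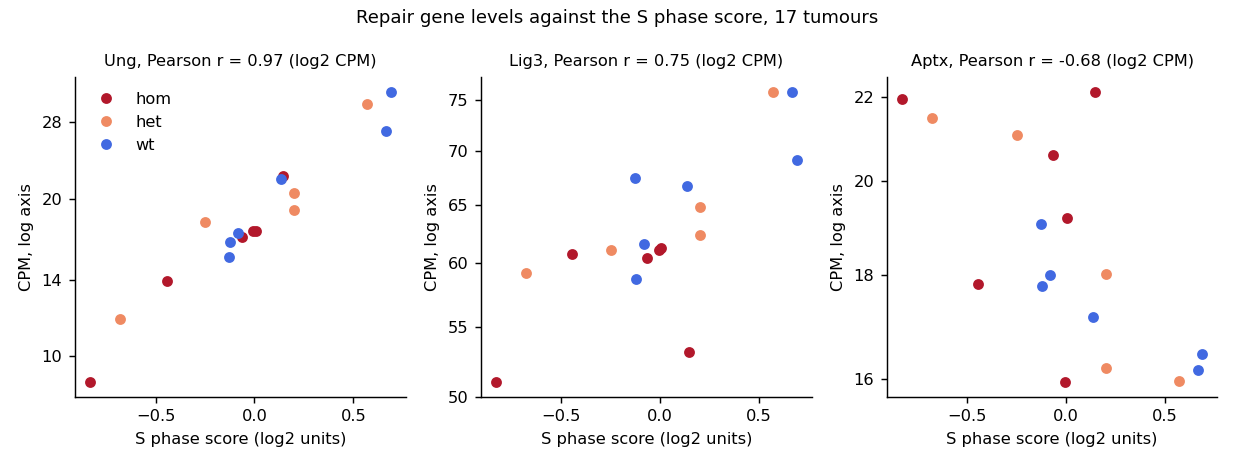
CPM (log axis) of Ung, Lig3 and Aptx against the S phase score of each of 17 tumours, coloured by genotype (hom, het, wt). Ung climbs with the score over the whole range (r = 0.97), Lig3 over a narrow range of CPM (r = 0.75), and Aptx descends (r = -0.68).

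The score of the colonocyte list, chosen after values had been seen, ran the opposite way. It used the 4 of 5 markers that passed the filter on low counts. Car1 and Aqp8 had medians of 0.153 and 0.506 CPM. Wt 4 had the lowest score both of this list (-3.54) and of the small-intestinal list (-4.64). The score is thus not shown to measure colonocytes in particular. Polb had an r of -0.89 (rho -0.71, adjusted permutation p = 0.00018 and 0.00579) and Xrcc1 an r of -0.83 (rho -0.75, adjusted permutation p = 0.00018 and 0.00274). Without het 6 and wt 4, the farthest tumours, these were -0.79 and -0.69. The other r were -0.76 for Ung, -0.72 for Neil1, -0.72 for Apex1, -0.61 for Ogg1, -0.60 for Lig3 and -0.54 for Mutyh, each with an adjusted permutation p under the threshold. Without het 6 and wt 4 they were -0.62 for Ung, -0.58 for Neil1, -0.46 for Apex1, -0.41 for Ogg1, -0.52 for Lig3 and -0.36 for Mutyh. Aptx did not pass by Pearson's r, at 0.46 (rho 0.51, adjusted permutation p = 0.0572 and 0.0461). All 5 colonocyte markers together summed to 294 to 687 CPM in hom, 158 to 491 CPM in het and 59.8 to 458 CPM in wt. The share of all genes that followed this score as closely was not computed, so these relations are not shown to be particular to the repair genes. The part of mature cells in the repair gene levels was not tested.

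Among the 36 pairs of the 9 genes, 30 had a positive r and 26 passed an adjusted permutation p of 0.05. The share among pairs of other genes was not computed, so the count is not shown to be particular to these genes. All 28 pairs without Aptx were positive over 17 tumours, with r between 0.28 and 0.88. Without the 2 tumours farthest from the median of the second gene, Lig3 and Apex1 had an r of -0.12, Lig3 and Ogg1 0.02 and Lig3 and Mutyh 0.07. Xrcc1 and Neil1 were the closest pair (r = 0.88, rho = 0.80, adjusted permutation p = 0.00036 and 0.00174, r = 0.91 without hom 3 and wt 2). Xrcc1 and Polb, the scaffold and the polymerase it binds, had an r of 0.85 and a rho of 0.81 (adjusted permutation p = 0.00048 and 0.00126, r = 0.70 without wt 4 and wt 5). Apex1 and Ogg1 had an r of 0.78 and a rho of 0.87 (adjusted permutation p = 0.0013 and 0.00036). Xrcc1 and Lig3, whose proteins form a complex, had an r of 0.61 (rho 0.68, adjusted permutation p = 0.0173 and 0.0105), and 0.45 without het 6 and wt 5. Lig3 and Aptx ran against each other (r = -0.75, rho = -0.66, adjusted permutation p = 0.00198 and 0.0127, -0.60 without hom 2 and hom 3). The pairs share libraries, scaling and tumour make-up.

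The mean of the 9 genes on a scale of SDs from each gene's mean placed wt 4 (1.45), wt 5 (1.03) and het 6 (1.003) highest, and wt 2 (-1.06) and hom 6 (-0.85) lowest. The wt tumours thus held both the highest and the lowest means. The tested genes whose pattern over the 17 tumours was most like that mean were U2af2 (r = 0.970), Snrnp40 (0.963), Srrt (0.957), 2700094K13Rik (0.954) and Cherp (0.952), picked as the highest of 14262 genes compared. Of those genes, 14.7% had an r over 0.7, so many transcripts followed the same order of tumours.

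**Figure D5:**
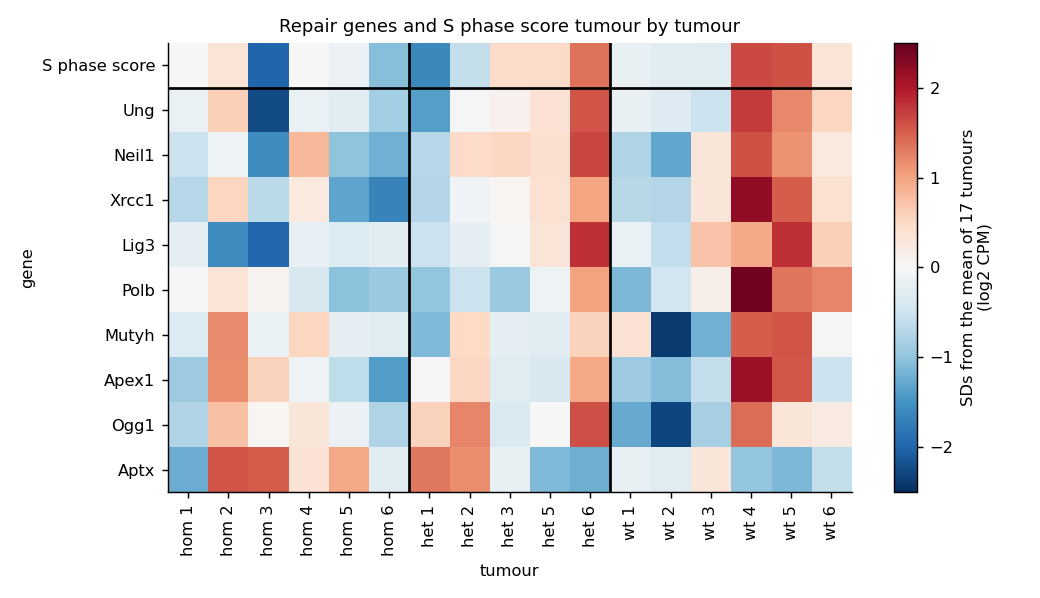
Each cell is a gene in 1 tumour, coloured by its log2 CPM in SDs from the mean of 17 tumours, with the S phase score in the top row and black lines between hom, het and wt. Wt 4, wt 5 and het 6 are high in nearly all rows but Aptx, which is low in those 3 tumours.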

How the data were processed

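RNA of 18 tumours was extracted with the AllPrep kit and made into libraries with the TruSeq Stranded Total RNA kit, per the labels' protocols. The labels' molecule field gives polyA RNA. The authors deposited raw read counts per gene and RPKM values. The submitters' processing notes list Trimmomatic, TopHat, featureCounts, Subread 1.4.5-p1 and the mm10 build. The deposited RPKM equalled counts per length and library total times a TMM-like factor, at 0.981 to 1.02 of values recomputed here.

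Counts of 17 large intestinal tumours were fitted by genotype in edgeR 4.0.16 (R 4.3.3) with filterByExpr, TMM factors and a robust quasi-likelihood test, with Benjamini-Hochberg adjustment over 14271 genes and a threshold of 0.05. Alternatives used DESeq2 1.42.0 and limma-voom (limma 3.58.1), 9 settings in all plus 17 fits that each left out 1 tumour. Scores and correlations used log2 CPM (prior count 2), and their permutation p-values were added to a plan that had them as descriptions. No library repeated another (lowest chi-square per degree of freedom 20.3, over genes with 20 counts or more between both libraries). The self-test used simulated counts. The 9 genes, the lists and the naming rule (the 9, Macrod2, and 3 wider-list genes per direction and comparison with the smallest p, of which 1 gene is not reported here) were chosen with earlier results of these data known. Gene positions came from GENCODE vM21.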

Additional observations from a re-analysis of the deposited data

How the results depend on the processing

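Across 27 results (9 genes in 3 comparisons) and 26 settings, 0 of 702 values passed an adjusted p of 0.05, with a lowest of 0.124 without wt 1 and wt 2. The direction turned in 25 values of 8 results, and the cause was not tested. In hom over wt Ogg1 was -0.094 without wt 1 and wt 2 and Mutyh was 0.00630 with limma-voom. In het over wt Neil1 was -0.083 without wt 1 and wt 2 and Apex1 was 0.035 with the replicate block. In hom over het Polb was 0.000536 with DESeq2 size factors, 0.000463 with DESeq2 and 0.00683 with het 4 added. Leaving out 1 tumour gave, in hom over wt, Apex1 -0.20 to 0.020, Ogg1 -0.027 to 0.16 and Mutyh -0.26 to 0.10. It gave, in het over wt, Apex1 -0.10 to 0.11, Neil1 -0.029 to 0.15 and Ung -0.32 to 0.023, and in hom over het Polb -0.066 to 0.11 and Mutyh -0.017 to 0.22.

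Over all genes, hom over wt gave 22 calls with DESeq2, 2 with the replicate block (Macrod2 and Spp1) and 1 to 2 with 1 tumour left out. Hom over het gave 0 calls, in place of 1, with only these genotypes fitted and with the replicate block, where the adjusted p of Macrod2 was 0.0917 and 0.0785 in edgeR. Deviations of tumours of the same number from their genotype means had r from -0.45 to 0.33, and the block changed no other call. Tumours of unlike numbers were not compared, so whether the numbers pair the tumours was not tested. The order of the 9 genes by level was the same with RPKM recomputed from the counts. That used the same deposited gene lengths, so it could not test the order. Those lengths were 1227 bases for Polb, 2155 for Xrcc1 and 5971 for Lig3. The exon bases in GENCODE vM21 were 3940, 5831 and 7284, and an order by these was not computed. Read depth limits Mutyh most, and no batch is named in the labels.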
